A study of Mus musculus with 6 samples.

Results

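The genes described are 56 that act in mitosis, at the spindle and at the kinetochore, chosen by name from a fixed list and found by symbol among the 24054 gene rows of the count table. All 56 were found. They were followed in salivary gland RNA from mice in which RANKL was switched on in epithelium. The question the comparison addresses is how the transcripts of dividing cells stood in glands with RANKL and in glands without it.

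There were 2 groups of 3 libraries each, and every library came from salivary gland tissue pooled from 5 mice. The K5-RANKL group carried K5-rtTA and TetO-RANKL, so that cells using the keratin 5 promoter make an activator which, with doxycycline, turns on a RANKL transgene. The control group was monogenic, and which transgene those mice carried is not given in the sources used here, nor are the strain, the sex or the kind of salivary gland. Doxycycline was given to both groups, in the food and the water, for 2 weeks that began at an age of 9 weeks. Because each library is a pool, p-values measure the spread between pools. In whole tissue, fewer cells of a type and less RNA per cell cannot be told apart.

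A cell enters mitosis when the kinase CDK1, bound to its cyclins, becomes active. The spindle, built from microtubules and moved by kinesin motors, then attaches to chromosomes at kinetochores, the protein plates that sit on centromeres. A checkpoint holds the cell until every kinetochore is attached. The anaphase-promoting complex then marks cyclin B and securin for destruction, separase cuts the cohesin rings that hold sister chromatids, and cytokinesis divides the cell. Most of the genes that encode this machinery are transcribed late in the cell cycle, through NF-Y at CCAAT boxes and through the MuvB complex at an element called the cell cycle genes homology region (CHR), with B-Myb and FOXM1. The adult salivary gland renews slowly, so these transcripts are ordinarily scarce there.

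RefSeq promoter windows (assembly GRCm38.p6, on which mm10 rests) were searched for those elements. Each window holds 250 bases before and 50 after an annotated start. The CHR was spelled TTTGAA or TTCGAA and the NF-Y box CCAAT, on both strands, and matches may share bases. Windows existed for 47 of the 56 genes, 51 windows in all. A CHR spelling was found in 74.5% of those windows and in 19.2% of all 32851 promoter windows. CCAAT was found in 78.4% of them, against 37.4% of all windows, and a window held both in 64.7%, against 7.52%. Among promoters of genes tested here, 13.97% of 13448 windows held a CHR spelling and 36.8% held CCAAT. By gene, 31 of the 47 had both, 5 had a CHR spelling alone, 5 had CCAAT alone and 6 had neither: Birc5, Mad2l1, Ncaph, Nuf2, Plk4 and Pttg1.

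The matches sat close to the start. A CHR spelling began between 50 bases before the start and 50 after it in 66.7% of the 51 windows, against 5.31% of all windows. CCAAT began within the 150 bases before the start in 70.6%, against 24.9%. Further upstream, from 250 to 50 bases before the start, the CHR share was 27.5%, against 14.9%. An E2F spelling (TTTGGCGC, TTTCCCGC or TTTCGCGC, both strands) was found in 9.80% of the members' windows and in 1.84% of all windows. A match describes letters and is not a binding site.

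**Figure D1:**
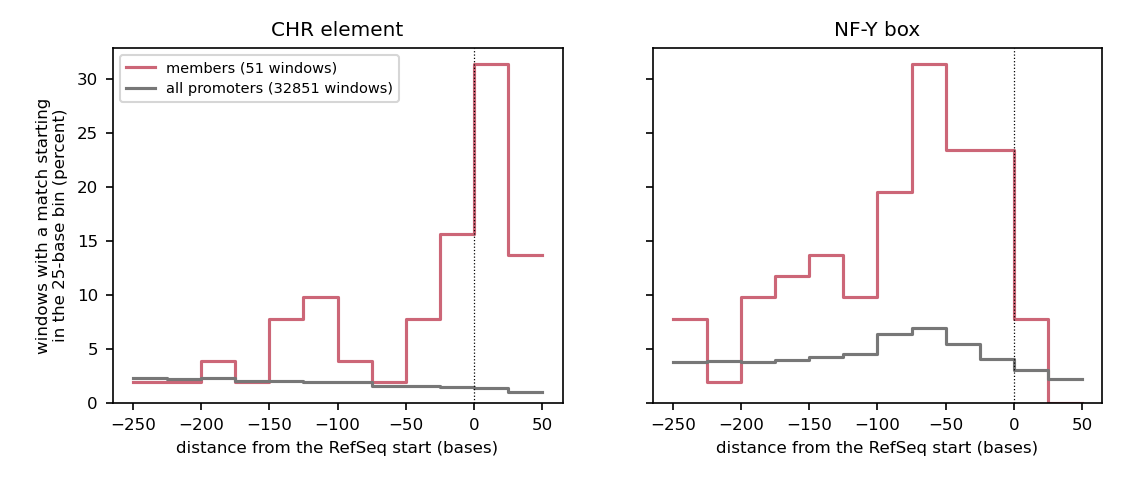
Share of promoter windows (percent, y axis) with a CHR element (left) or NF-Y box (right) that starts in each 25-base bin, against distance from the RefSeq start in bases (x axis), for 51 windows of mitotic genes and all 32851 windows. The members' CHR matches peak in the bin just after the start, at 31.4%, and their NF-Y boxes in the bin from 75 to 50 bases before it, at 31.4%.

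The sequences below show where those elements lie. Stretches were chosen for the called member of each functional group with the smallest p that had a window. Pttg1 and Spc25, which were not called higher, were added. Of those 11, the 5 with at most 30 bases in a GENCODE exon are printed. Each is the 150 bases up to the RefSeq start, 5′ to 3′ on the gene's strand, and capitals mark CHR and CCAAT matches on either strand.
Bub1: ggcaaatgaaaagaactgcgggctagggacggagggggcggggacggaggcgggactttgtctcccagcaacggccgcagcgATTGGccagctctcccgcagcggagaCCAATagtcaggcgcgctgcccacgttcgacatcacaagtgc
Kif2c: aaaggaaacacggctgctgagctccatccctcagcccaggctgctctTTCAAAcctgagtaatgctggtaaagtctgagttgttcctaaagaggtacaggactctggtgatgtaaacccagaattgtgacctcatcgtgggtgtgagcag
Ect2: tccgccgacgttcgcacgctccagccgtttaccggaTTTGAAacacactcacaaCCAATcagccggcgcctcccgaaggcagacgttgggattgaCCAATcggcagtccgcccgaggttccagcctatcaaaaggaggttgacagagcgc
Smc2: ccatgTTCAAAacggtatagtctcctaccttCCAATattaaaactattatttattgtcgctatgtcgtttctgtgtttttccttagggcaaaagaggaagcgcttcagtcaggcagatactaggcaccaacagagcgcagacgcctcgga
Spc25: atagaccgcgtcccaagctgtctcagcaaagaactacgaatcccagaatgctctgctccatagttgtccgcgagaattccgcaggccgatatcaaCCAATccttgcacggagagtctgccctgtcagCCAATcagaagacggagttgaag
The positions in GRCm38.p6 are chr2:127831860-127832009 (minus strand) for Bub1, chr4:117178773-117178922 (minus) for Kif2c, chr3:27153879-27154028 (minus) for Ect2, chr4:52439071-52439220 (plus) for Smc2 and chr2:69206214-69206363 (minus) for Spc25. Those of Bub1, Smc2 and Spc25 lie outside the RefSeq gene span. Those of Kif2c and Ect2 lie inside it, upstream of a start that is not the outermost, and the Ect2 stretch is from the first of 2 windows. Bub1, Ect2, Smc2 and Spc25 each had 1 more CHR spelling in the 50 bases after the start, which are not printed. The Spc25 window held both elements although Spc25 was not called. The Pttg1 window held neither, but it belongs to a start inside the gene, 270 bases from the outer end of the GENCODE gene. The RefSeq gene reaches further: the 150 bases before that start end at base 43426131, and the gene runs to 43427463. The other starts of Pttg1 were not searched. The start used for Cdca8, at the outer end of its RefSeq gene, lies 2394 bases from the outer end of its GENCODE gene. That for Kif2c, inside its RefSeq gene, lies 3867 bases from the outer GENCODE end. Other starts of these genes were not searched.

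Total counts ran from 13875951 to 17921815 per library. Salivary transcripts filled the controls: the top 20 genes in each library took 64.9 to 67.3% of the counts in controls and 31.98 to 39.1% in K5-RANKL libraries. Levels are therefore given as CPM, the usual count divided by library size, on library sizes adjusted by TMM (the trimmed mean of M values), with factors of 0.677 to 0.735 in controls and 1.32 to 1.47 in K5-RANKL libraries. Scaled by library totals only, the fold changes shifted upward as a whole: their median over all genes tested was 1.01 on the log2 scale, against 0.01 with TMM. Tnfsf11, which encodes RANKL, stood at 0.939 to 3.78 CPM in controls and at 702, 405 and 723 CPM in K5-RANKL 1, 2 and 3. The tissue label was checked on 12 salivary acinar markers, all detected, which summed to 213374 to 264860 CPM in controls and 25311 to 35377 CPM in K5-RANKL libraries.

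Of the 56 genes, 53 rose, 1 fell and 2 were not called (edgeR, Benjamini-Hochberg adjusted p under 0.05 over 14044 genes), while 66.2% of all genes tested were called in either direction. Among all genes tested, 34.2% were called higher, against 94.6% of these 56, and 32.1% were called lower. The median of their log2 fold changes was 2.32, beside 0.01 over all genes. At least 4-fold rises were called in 40 of the 56, 71.4%, against 6.65% of all genes tested. In 55 of the 56 the lowest K5-RANKL library stood above the highest control, and in Pttg1 the highest K5-RANKL library stood below the lowest control; among all genes tested the groups did not overlap in 70.4%, and in 36.3% with K5-RANKL higher.

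All 56 passed the filter on low counts. In controls these transcripts were scarce: 11 of the 56 had under 10 counts in at least 1 control, and the median over the 56 was 1.80 to 2.39 CPM in each control. They were Cdc25c, Bub1, Ttk, Kif4, Kif18b, Kif20b, Cenpi, Cenpk, Cenpm, Ndc80 and Nuf2. Those 11 could pass the filter through their K5-RANKL counts. All but Cenpk are among the 53 that rose, and all but Cenpk and Cenpm among the 40 that rose at least 4-fold. The shares above therefore rest partly on them, and their folds are imprecise. The median was 7.20 to 11.4 CPM in each K5-RANKL library. Summed, the 56 genes stood at 172, 188 and 199 CPM in the controls. In K5-RANKL 1, 2 and 3 their sum was 810.3, 523 and 726 CPM, 3.69-fold higher on average. By library totals that fold was 7.40, so its size depends on the scaling. No gene of the 56 was at 0 in any library.

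**Figure D2:**
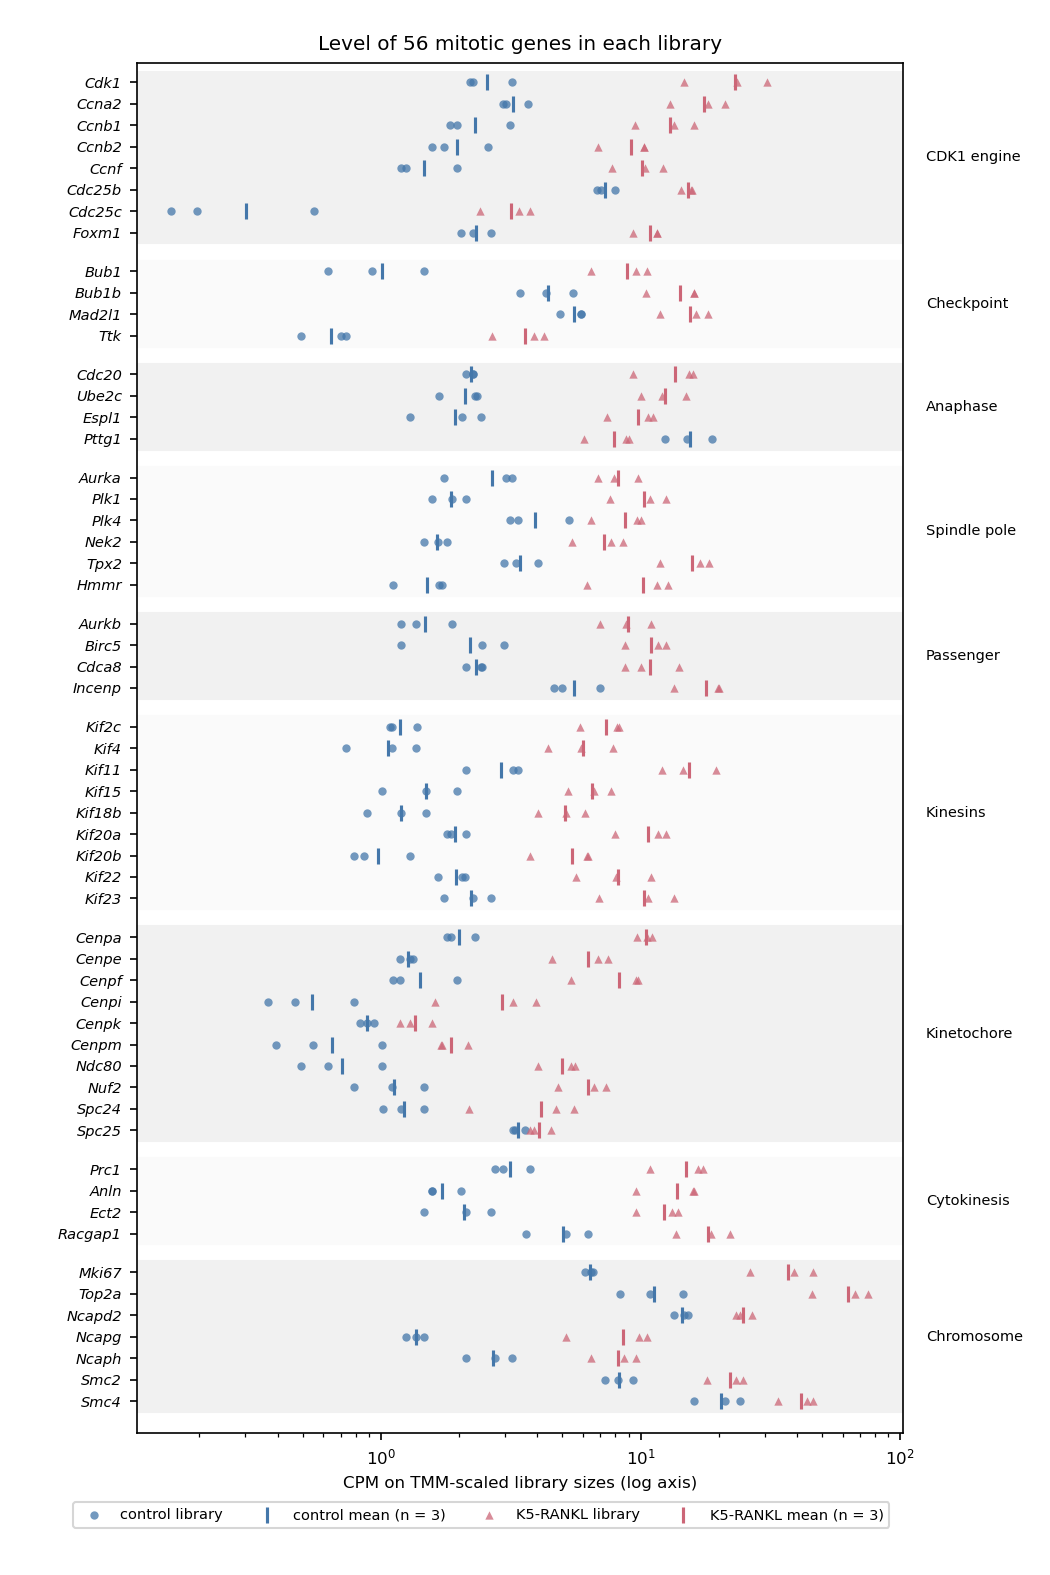
CPM on TMM-scaled library sizes (log x axis) of the 56 genes (y axis, by functional group) in 3 control libraries (circles) and 3 K5-RANKL libraries (triangles), with group means as ticks. The triangles lie to the right of the circles in every row except Pttg1, and in Spc25 and Cenpk the groups nearly touch.

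All 8 genes of the CDK1 engine rose, and the median of their log2 fold changes was 2.45. In what follows, values of single libraries are in order of replicate number. Cdk1, the kinase that starts mitosis, held 2.21, 2.26 and 3.21 CPM in controls and 30.7, 14.7 and 23.6 CPM in K5-RANKL libraries. Its log2 fold change was 3.15 (SE 0.41, edgeR adjusted p = 0.00116), and all later rises and falls are on that log2 scale. K5-RANKL 1 was the highest library and K5-RANKL 2 the lowest of that group, well above every control. Foxm1, the transcription factor of late cell cycle genes, held 2.03, 2.26 and 2.66 CPM in controls and 11.6, 9.36 and 11.6 CPM in K5-RANKL libraries. It rose by 2.22 (SE 0.17, edgeR adjusted p = 3.93e-09), with a narrow spread in both groups. Ccnf, encoding cyclin F, a ubiquitin ligase subunit, held 1.20, 1.96 and 1.25 CPM against 12.2, 7.76 and 10.4 CPM and rose by 2.80 (SE 0.23, edgeR adjusted p = 2.09e-08). The cyclin genes Ccna2, Ccnb1 and Ccnb2 rose by 2.43, 2.47 and 2.20.

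The phosphatases that activate CDK1 stood at the ends of that group. Cdc25c had the highest fold change of all 56, at 0.553, 0.196 and 0.156 CPM in controls and 3.74, 2.41 and 3.40 CPM in K5-RANKL libraries. The controls held only 6, 2 and 2 counts of it, so the rise of 3.40 (SE 0.39, edgeR adjusted p = 5.64e-07) is imprecise, and it was 4.15 without control 1. Cdc25b, which acts earlier at the centrosome, was already at 6.82, 7.95 and 7.04 CPM in controls and reached 15.7, 14.3 and 15.8 CPM. Its rise of 1.08 (SE 0.12, edgeR adjusted p = 2.85e-07) was the least of the 8, and its K5-RANKL libraries lay close together.

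All 4 checkpoint genes rose, from 1.48 to 3.18. Bub1, the kinase that gathers checkpoint proteins at kinetochores, held 0.922, 1.47 and 0.626 CPM in controls and 10.6, 6.42 and 9.60 CPM in K5-RANKL libraries. It rose by 3.18 (SE 0.28, edgeR adjusted p = 1.52e-07), one of 3 genes of the 56 above 3, with Cdc25c and Cdk1. Mad2l1 encodes MAD2, the protein that binds CDC20 and stops the anaphase-promoting complex. It held 4.89, 5.89 and 5.87 CPM against 18.1, 11.9 and 16.4 CPM and rose by 1.48 (SE 0.16, edgeR adjusted p = 9.36e-07). Bub1b, encoding BUBR1, and Ttk, encoding the kinase MPS1, rose by 1.67 and 2.46.

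Of the 4 genes of anaphase onset, 3 rose and 1 fell. Ube2c, the ubiquitin-conjugating enzyme of the anaphase-promoting complex, held 2.30, 1.67 and 2.35 CPM in controls and 14.98, 10.005 and 12.1 CPM in K5-RANKL libraries, a rise of 2.54 (SE 0.20, edgeR adjusted p = 5.80e-09). Espl1, encoding separase, held 1.29, 2.06 and 2.43 CPM against 11.2, 7.44 and 10.7 CPM, a rise of 2.33 (SE 0.22, edgeR adjusted p = 1.56e-07). Cdc20, the activator of the complex, rose by 2.61 (SE 0.23). In each of these 3 the lowest K5-RANKL library stood well above the highest control.

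Pttg1 went the other way. It encodes securin, the inhibitor that holds separase until anaphase. The gene spans bases 43420244 to 43427463 of chromosome 11 (GRCm38). Controls held 18.8, 12.4 and 15.1 CPM and the K5-RANKL libraries 8.76, 6.05 and 8.99 CPM. The groups did not overlap, and Pttg1 fell by 0.95 (SE 0.17, edgeR adjusted p = 0.000301). By library totals it stood at 0.06 (edgeR adjusted p = 0.758). The fall is therefore relative to an adjusted scale, that of TMM or of RLE, another way to adjust library sizes. The share of the summed counts of the 56 genes does not use such a scale. It drops whenever the rest of the 56 rise, so it places Pttg1 against them and cannot show a fall of its own. Pttg1 took 10.9, 6.57 and 7.60% of those counts in controls and 1.08, 1.16 and 1.24% in K5-RANKL libraries, while Top2a took 4.82, 5.79 and 7.29% and then 9.28, 8.78 and 9.26%. The share of Pttg1 was lower in every K5-RANKL library than in any control. Per kilobase of its longest basic GENCODE transcript, Pttg1 had the highest control level of the 56, 9.22 ± 1.92 CPM per kb (SD, n = 3), and ranked 16 of 56 in K5-RANKL libraries, at 4.74 ± 0.977.

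All 6 genes of the centrosome and spindle pole rose, with a median of 2.17. Plk1, the kinase that matures centrosomes and acts through mitosis, held 2.12, 1.57 and 1.88 CPM in controls and 12.5, 7.65 and 10.9 CPM in K5-RANKL libraries, a rise of 2.48 (SE 0.22, edgeR adjusted p = 4.85e-08). Tpx2, which activates Aurora A on spindle microtubules, held 3.32, 4.03 and 2.97 CPM against 18.3, 11.9 and 16.96 CPM and rose by 2.21 (SE 0.19, edgeR adjusted p = 8.44e-08). Plk4, the kinase that licenses centriole duplication, held 3.13, 5.30 and 3.36 CPM against 10.003, 6.42 and 9.65 CPM. Its rise of 1.17 (SE 0.22, edgeR adjusted p = 0.000294) was the least of the group, and control 2 and K5-RANKL 2 lay near each other. Aurka, Nek2 and Hmmr rose by 1.61, 2.14 and 2.77.

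The chromosomal passenger complex corrects faulty attachments and later marks the midzone, and all 4 of its genes rose. Aurkb, its kinase, held 1.20, 1.37 and 1.88 CPM in controls and 11.0, 6.96 and 8.76 CPM in K5-RANKL libraries, a rise of 2.57 (SE 0.23, edgeR adjusted p = 3.99e-08). Cdca8, encoding borealin, held 2.12, 2.45 and 2.43 CPM against 14.03, 8.67 and 10.02 CPM and rose by 2.23 (SE 0.21, edgeR adjusted p = 1.14e-07). Incenp, the scaffold, was higher in controls than its partners in CPM, at 4.98, 6.97 and 4.62, and reached 20.05, 13.4 and 19.9 CPM, a rise of 1.71 (SE 0.19, edgeR adjusted p = 8.10e-06). Birc5, encoding survivin, rose by 2.30.

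The 9 mitotic kinesins rose within the narrowest band of any group of more than 4 genes, from 2.08 to 2.64. Kif2c, encoding MCAK, which shortens microtubules at kinetochores, held 1.38, 1.08 and 1.10 CPM in controls and 8.09, 5.83 and 8.25 CPM in K5-RANKL libraries, a rise of 2.64 (SE 0.23, edgeR adjusted p = 1.52e-08). Kif20a, a kinesin of the midzone and cytokinesis, held 2.12, 1.87 and 1.80 CPM against 12.5, 7.97 and 11.7 CPM and rose by 2.48 (SE 0.21, edgeR adjusted p = 1.72e-08). Kif18b, which acts on the plus ends of astral microtubules, held 1.20, 0.884 and 1.49 CPM against 6.10, 4.01 and 5.17 CPM and rose by 2.08 (SE 0.25, edgeR adjusted p = 1.10e-06). The groups of each of these 3 kinesins were far apart compared with their spread. Kif11, which slides spindle poles apart, rose by 2.41, and Kif23, a centralspindlin subunit, by 2.21.

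Of 10 centromere and kinetochore genes, 8 rose and 2 were not called. Cenpa, the histone variant that defines the centromere, held 2.30, 1.87 and 1.80 CPM in controls and 11.1, 10.6 and 9.69 CPM in K5-RANKL libraries, a rise of 2.39 (SE 0.17, edgeR adjusted p = 1.17e-09). It was the only one of the 56 in which K5-RANKL 2 was not the lowest K5-RANKL library. Ndc80, whose complex grips microtubules, held 1.01, 0.491 and 0.626 CPM against 5.60, 4.01 and 5.40 CPM and rose by 2.81 (SE 0.28, edgeR adjusted p = 9.34e-08). Its partner Nuf2 rose by 2.48, and Cenpe, Cenpf and Cenpi by 2.31, 2.52 and 2.46.

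The NDC80 complex has 4 subunits. Spc24 held 1.20, 1.47 and 1.02 CPM in controls and 5.52, 2.19 and 4.71 CPM in K5-RANKL libraries, and rose by 1.78 (SE 0.36, edgeR adjusted p = 0.000926). Spc25, on chromosome 2 from 69193895 to 69206213, held 3.59, 3.24 and 3.29 CPM against 4.52, 3.75 and 3.87 CPM. Its log2 fold change of 0.27 (SE 0.18) was not called (edgeR adjusted p = 0.201). Per kilobase, Spc25 stood at 2.21 ± 0.124 CPM per kb in controls, beside 0.725 ± 0.134 for Spc24, 0.465 ± 0.143 for Nuf2 and 0.322 ± 0.122 for Ndc80 (SD, n = 3 each). In K5-RANKL libraries the 4 stood at 2.65 ± 0.271, 2.44 ± 1.02, 2.60 ± 0.541 and 2.27 ± 0.393 CPM per kb in the same order, ranges that overlap. The other member not called was Cenpk, of the inner kinetochore, on chromosome 13 from 104228611 to 104249622. It held 0.830, 0.884 and 0.939 CPM in controls and 1.58, 1.18 and 1.30 CPM in K5-RANKL libraries, a log2 fold change of 0.62 (SE 0.30, edgeR adjusted p = 0.0764). By library totals Spc25 and Cenpk were called higher, at 1.27 and 1.61, as were 83.5% of all genes tested.

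The 4 genes of cytokinesis rose, from 1.84 to 2.99. Ect2, the exchange factor that activates RhoA at the cleavage furrow, held 2.12, 1.47 and 2.66 CPM in controls and 13.99, 9.63 and 13.2 CPM in K5-RANKL libraries, a rise of 2.53 (SE 0.21, edgeR adjusted p = 1.76e-08). Anln, encoding the furrow scaffold anillin, held 1.57, 1.57 and 2.03 CPM against 16.1, 9.58 and 15.9 CPM and rose by 2.99 (SE 0.25, edgeR adjusted p = 3.22e-07). Racgap1, the centralspindlin partner of Kif23, held 5.16, 3.63 and 6.26 CPM against 22.04, 13.7 and 18.6 CPM and rose by 1.84 (SE 0.22, edgeR adjusted p = 3.40e-05). Prc1, which bundles midzone microtubules, rose by 2.24.

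Chromosome structure genes all rose, with the lowest median of the 9 functional groups, 1.60. Mki67, the proliferation marker Ki-67, held 6.45, 6.58 and 6.10 CPM in controls and 46.1, 26.3 and 38.8 CPM in K5-RANKL libraries, a rise of 2.55 (SE 0.25, edgeR adjusted p = 8.55e-05). Top2a, the topoisomerase that untangles sister chromatids, held 8.30, 10.9 and 14.5 CPM against 75.2, 45.9 and 67.2 CPM and rose by 2.47 (SE 0.29). Per kilobase Top2a was the highest of the 56 in K5-RANKL libraries, at 12.02 ± 2.90 CPM per kb (SD, n = 3). Smc4 was next at 9.57 ± 1.53. Their ranges, 8.79 to 14.4 and 7.83 to 10.7, overlapped, and both genes were lowest in K5-RANKL 2 and highest in K5-RANKL 1.

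The condensin genes ranged widely. Ncapg, found only in condensin I, rose by 2.65 (SE 0.32). Ncaph, also a condensin I subunit, held 2.12, 2.75 and 3.21 CPM in controls and 9.59, 6.42 and 8.62 CPM in K5-RANKL libraries, and rose by 1.60 (SE 0.20, edgeR adjusted p = 1.61e-06). Smc2, a core subunit of both condensins, held 7.28, 9.33 and 8.22 CPM against 24.9, 18.03 and 23.4 CPM and rose by 1.43 (SE 0.14, edgeR adjusted p = 1.27e-07). Its partner Smc4 rose by 1.01 (SE 0.16). Ncapd2, the third condensin I regulator, held 13.5, 14.7 and 15.2 CPM against 26.8, 23.3 and 24.04 CPM. Its rise of 0.77 (SE 0.10, edgeR adjusted p = 1.81e-06) was the least among all 53 that rose. Smc4 and Ncapd2 ranked 2 and 3 of 56 in controls per kilobase, at 4.74 ± 0.947 and 3.13 ± 0.189 CPM per kb (SD, n = 3).

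**Figure D3:**
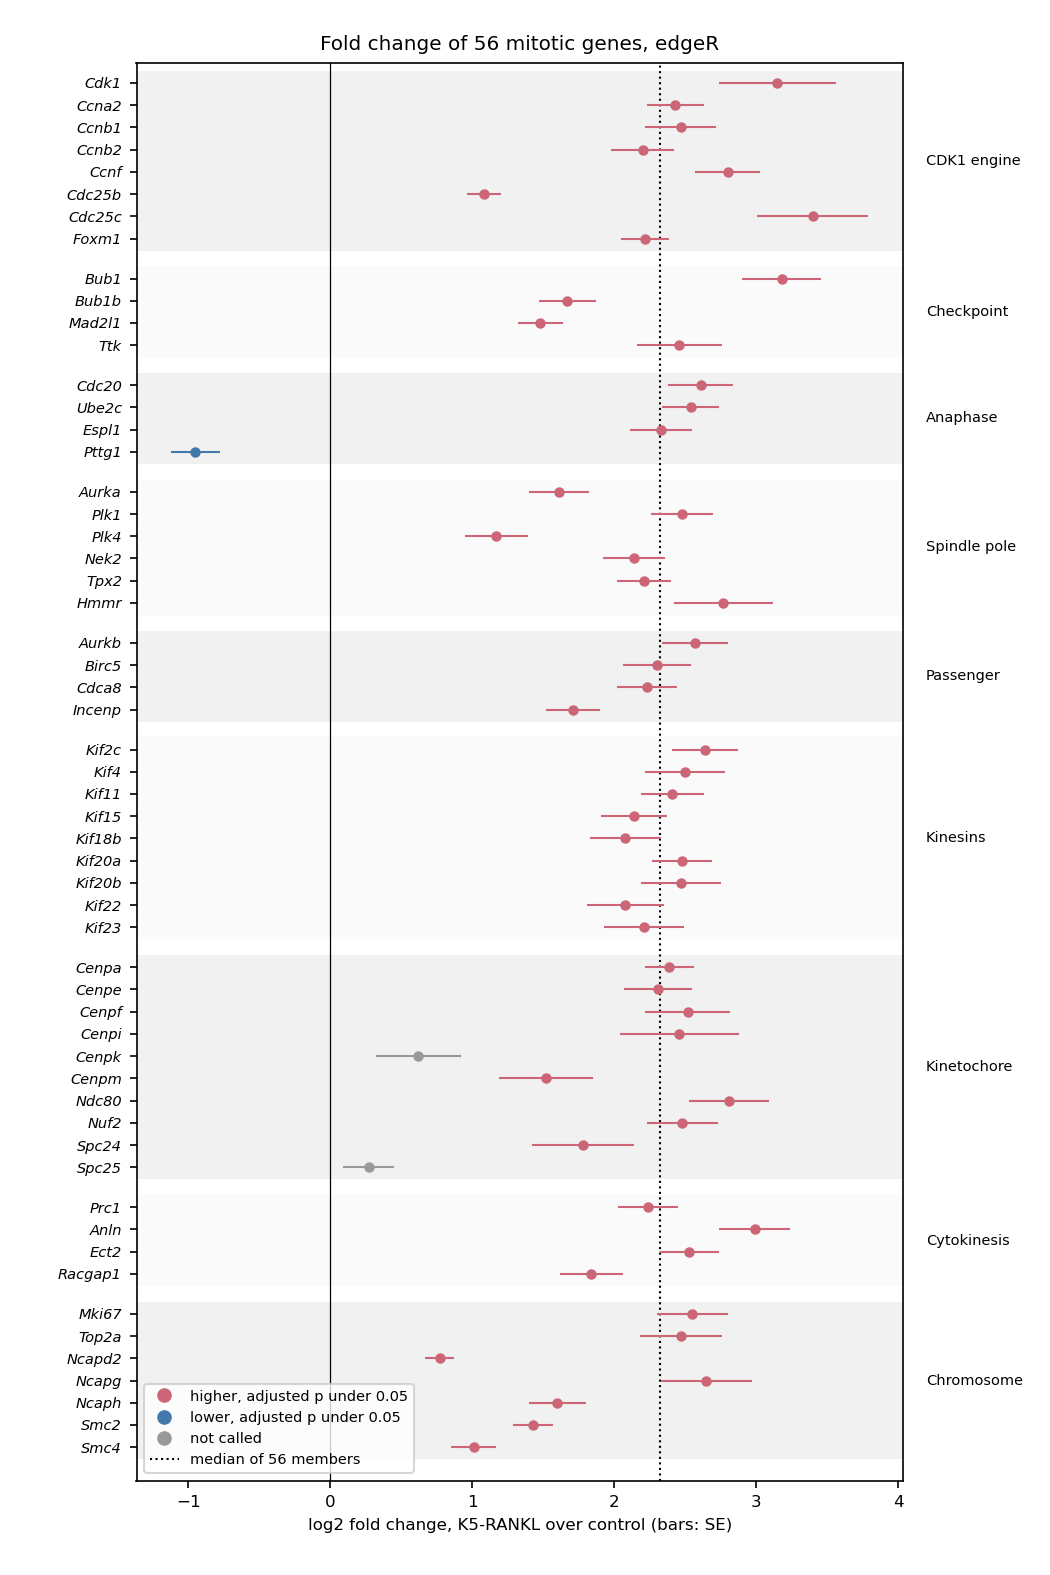
Log2 fold change of K5-RANKL over control (x axis; bars are SE) for the 56 genes (y axis, by functional group), coloured by call. Most of the genes lie near the dotted median of 2.32; Pttg1 lies at −0.95, and Spc25 and Cenpk, in grey, at 0.27 and 0.62.

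The 3 K5-RANKL libraries were ordered alike in nearly all of the 56 genes. K5-RANKL 2 was the lowest of the 3 in 55 of 56 genes, against 35.9% of all genes tested, and K5-RANKL 1 the highest in 48, or 85.7%, against 34.8%. Set against the mean of the remaining pair of its group, K5-RANKL 1, 2 and 3 stood at medians of 0.38, −0.56 and 0.16 log2 over the 56, beside 0.00 to 0.01 over all genes. In controls the same medians were −0.13, −0.02 and 0.10. Without K5-RANKL 2, 53 members still rose and 1 fell, with a median of 2.46.

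Levels of some other transcripts moved with these. Tnfsf11 was also lowest in K5-RANKL 2. The 7 basal epithelial markers, all of which rose, summed to 184 to 196 CPM in controls and to 1155, 574 and 1069 CPM in K5-RANKL libraries, and stood at a median of −0.93 log2 in K5-RANKL 2. Krt5, whose promoter drives the activator, held 398, 161 and 368 CPM there. The 12 acinar markers all fell. They stood at a median of 0.46 in K5-RANKL 2, where 12 of 12 were above the mean of the other pair. Amy1, Smr3a and Bpifa2 were nonetheless highest in K5-RANKL 1, as most mitotic genes were, and lowest in K5-RANKL 3. Amy1, for 1, held 859, 688 and 120.2 CPM. Of 9 salivary duct markers 7 fell and 2 rose, at medians of −0.31, 0.13 and 0.20 in K5-RANKL 1, 2 and 3. The part of these cells in the mitotic levels was not tested.

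Markers of other cell types were read in the same way. Beside their calls and those of the basal, acinar and duct markers, 34.2% of all genes tested rose and 32.1% fell. All 10 macrophage markers rose, from summed levels of 383 to 458 CPM to 2503 to 2626 CPM, and stood at 0.03 in K5-RANKL 2. Of 8 fibroblast markers 7 rose, and their sum, 599 to 802 CPM in controls, was 3181, 2719.7 and 2838 CPM in K5-RANKL 1, 2 and 3, the same order as the mitotic genes, with a median of −0.06 in K5-RANKL 2. Of 9 T cell markers 7 rose (87.4 to 96.9 CPM, then 169 to 188), at 0.09. Of 9 B and plasma cell markers tested 2 rose and 1 fell, and their sum went from 336 to 441 CPM in controls to 276 to 306 CPM. Of 6 germinal centre B cell markers 2 rose and 1 fell (58.4 to 69.96 CPM, then 69.3 to 77.6), at 0.54 in K5-RANKL 1 and −0.07 in K5-RANKL 2. Of 7 endothelial markers 3 rose and 2 fell. No marker of these lists was at 0 in every library, and which cells held the mitotic transcripts was not tested.

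**Figure D4:**
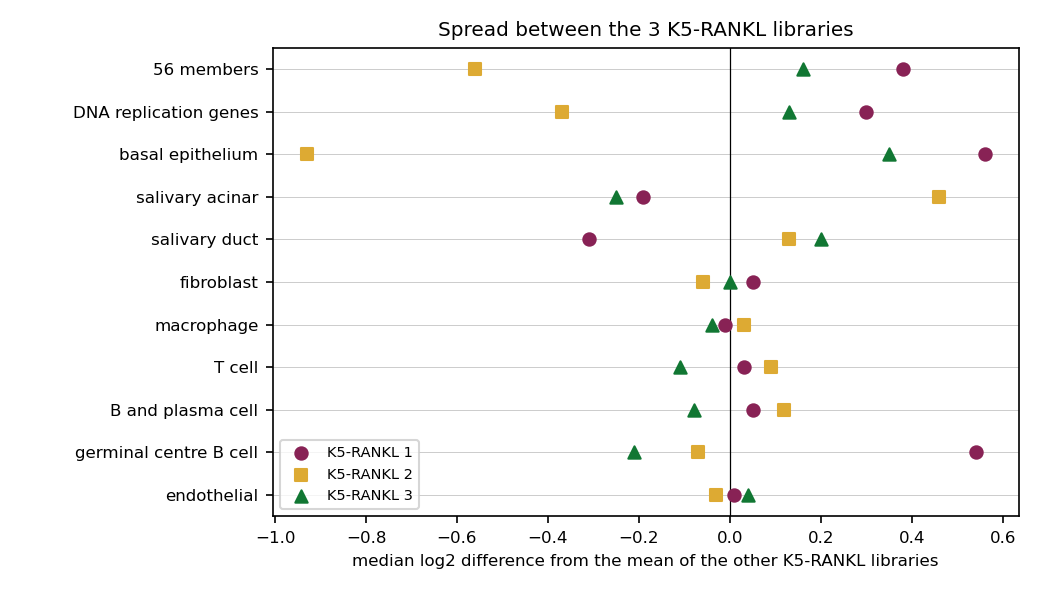
Median log2 difference of each K5-RANKL library from the mean of the other K5-RANKL libraries (x axis) over the 56 mitotic genes and over lists of replication genes and cell type markers (y axis). K5-RANKL 2 (squares) lies at −0.56 for the mitotic genes, −0.37 for replication genes and −0.93 for basal markers, and near 0 for macrophage and fibroblast markers.

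The 6 lists that follow hold other genes of the mitotic machinery. Beside their calls, 34.2% of all genes tested were called higher and 32.1% lower. Of 35 further mitotic genes tested, 30 rose, 2 fell and 3 were not called, with a median of 2.06. Some that rose, Depdc1a, Depdc1b, Fam64a and Troap among them, had under 10 counts in every control. They could pass the filter through their K5-RANKL counts. With at least 50 counts in 3 libraries, 28 of these genes were tested, 23 rose and 2 fell, and the median was 1.93. Arhgap11a, a RhoA regulator of the furrow, rose by 1.89 (SE 0.14, edgeR adjusted p = 3.45e-09) from 4.65 ± 0.670 to 17.2 ± 2.26 CPM (SD, n = 3 each). Cdc25a fell by 0.82 (SE 0.09, edgeR adjusted p = 2.62e-07), from 29.1, 30.2 and 29.5 CPM to 17.5, 15.4 and 17.3 CPM. The CDK1-inhibiting kinase genes Wee1 and Pkmyt1 were not called, at −0.00 and −0.20.

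Of 25 further kinetochore genes, 19 rose, 3 fell and 3 were not called, with a median of 1.44. Some that rose, Cenph, Cenpu, Ska1 and Oip5 among them, had under 10 counts in every control. They could pass the filter through their K5-RANKL counts. With at least 50 counts in 3 libraries, 16 of these genes were tested, 11 rose and 2 fell, and the median was 0.99. Casc5, encoding the checkpoint platform KNL1, held 0.922, 0.491 and 1.56 CPM in controls and 6.56, 4.39 and 5.78 CPM in K5-RANKL libraries. It rose by 2.44 (SE 0.29, edgeR adjusted p = 1.38e-06). Hjurp, the chaperone that loads CENP-A, fell by 1.37 (SE 0.31, edgeR adjusted p = 0.000878), from 2.77, 3.04 and 1.56 CPM to 1.16, 0.589 and 0.978 CPM, while Cenpa itself rose. Of 17 genes of the anaphase-promoting complex and its regulators, 7 rose, 2 fell and 8 were not called. The 41.2% that rose lie near the 34.2% of all genes tested, and the median of this list was 0.20. At its ends were Anapc13, a small subunit, which fell by 0.95 (SE 0.10, edgeR adjusted p = 2.73e-07), and the inhibitor gene Fbxo5, which rose by 1.21 (SE 0.24). Anapc2, the cullin subunit, rose by 0.44 (SE 0.08).

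Cohesin and condensin II gave 7 of 16 higher, 2 lower and 7 not called, with a median of 0.12. The 43.8% called higher also lie near the 34.2% of all genes tested. Ncapg2, a condensin II subunit, rose by 1.54 (SE 0.13, edgeR adjusted p = 2.22e-08), and Stag2, a cohesin subunit, fell by 0.25 (SE 0.07). Of 23 MuvB, B-Myb and E2F factors, 13 rose (56.5%), 4 fell and 6 were not called. Mybl2, encoding B-Myb, rose by 2.35 (SE 0.24) from 1.18 ± 0.145 to 6.02 ± 1.30 CPM. Rbl1, encoding p107, rose by 1.25 (SE 0.12). Among the NF-Y subunit genes, Nfyc fell by 0.47 (SE 0.08), Nfya rose by 0.90 (SE 0.09) and Nfyb was not called. Among the MuvB genes, Lin9 and Rbbp4 rose by 0.71 and 0.32, Lin52 fell by 0.68, and Lin37 and Lin54 were not called. Of 19 centriole and gamma-tubulin genes, 10 rose (52.6%), 1 fell and 8 were not called, with a median of 0.30. Nin rose by 0.89 (SE 0.09) and Cep63 fell by 0.45 (SE 0.12). The calls of every fall in these 6 lists, Cdc25a and Hjurp included, depend on adjusted library sizes, but not on TMM alone. Under RLE scaling, another adjustment, the lists held as many falls as with TMM: 2, 3, 2, 2, 4 and 1, in the order given. By library totals 0 of their genes were called lower, but only 698 of all 14044 genes tested were.

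Replication genes act in the preceding S phase. Of 39, 37 rose, 94.9% against 34.2% of all genes tested, and 2 were not called. Their median was 1.18, beside 2.32 for the mitotic genes, and the difference between the lists was not tested. Mcm5, a subunit of the replication helicase, rose by 1.80 (SE 0.11) from 10.3 ± 0.838 to 35.8 ± 4.10 CPM. Of 15 cyclin D, cyclin E, CDK and CDK inhibitor genes, 10 rose (66.7%), 3 fell and 2 were not called. Cdkn1a, encoding the cell cycle inhibitor p21, was at 5.62, 3.93 and 4.85 CPM in controls and 50.7, 42.5 and 44.96 CPM in K5-RANKL libraries, a rise of 3.26 (SE 0.12, edgeR adjusted p = 4.93e-13). Cdkn2c fell by 0.58 (SE 0.15) on the TMM scale. By library totals 0 of the 15 were called lower, again beside 698 of all 14044 genes tested.

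**Figure D5:**
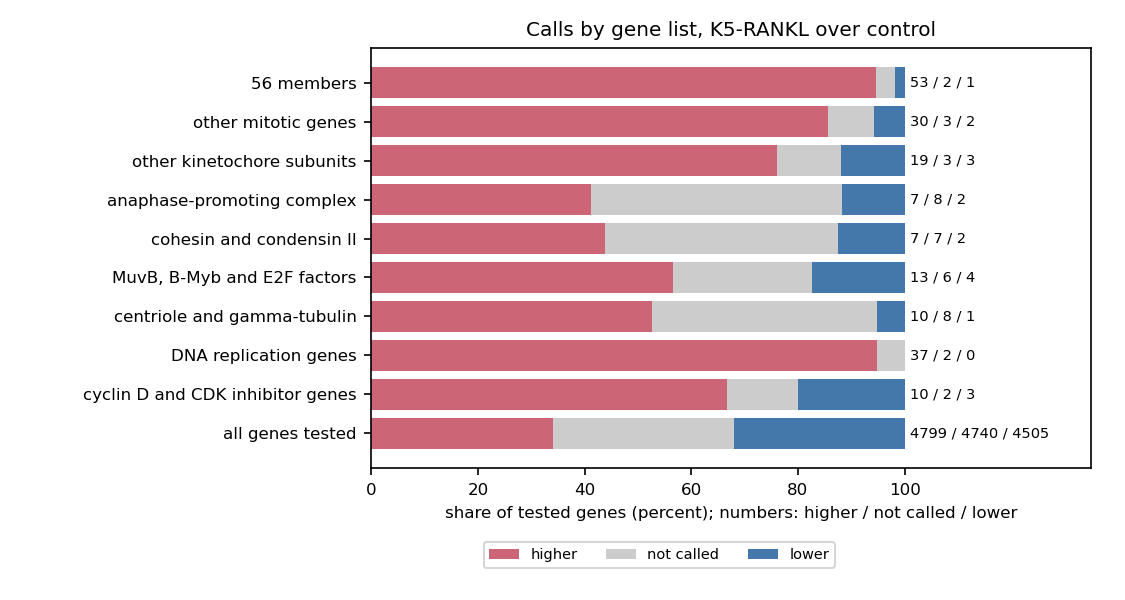
Share of tested genes called higher, not called or called lower in K5-RANKL over control (percent, x axis) for the 56 genes, 6 further lists of the mitotic machinery, replication genes, cyclin D and CDK inhibitor genes, and all genes tested (y axis); numbers at the right are counts. The 56 genes stand at 53 higher of 56, and all genes tested at 4799 higher of 14044.

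Some counts may hold reads of a neighbour, since the strand setting of the counting is not given in the sources used here. Exons of Kif20a shared 29.3% of their bases with Cdc23 on the opposite strand, and those of Ube2c 22.8% with Tnnc2. Neither neighbour was called (0.18 and 1.40, edgeR adjusted p = 0.0787 and 0.119). Smaller overlaps, of 11.1 to 15.1%, were found in Ccna2, Cdc25c, Kif4, Prc1 and Ncapg. Cenpk shared 4.45% with Ppwd1, which rose by 0.62. Pttg1 and Spc25 shared no exon with another coding gene in GENCODE. Ccnb1, Ccnb2, Kif4 and Kif22 have named pseudogenes, and how reads shared with those copies were counted is not given in the sources used here.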

How the data were processed

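Messenger RNA was sequenced from salivary gland pools of 3 control and 3 K5-RANKL groups of mice, with a strand-specific library kit, per the labels' protocols. Raw read counts per gene were deposited by the authors. Reads were aligned with STAR to mm10, per the submitters' processing notes; of the counting tool, annotation and strand setting nothing is stated in the labels.

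Groups follow the genotype label, and replicate numbers are accession order. Libraries of a group differed by a chi-square statistic of 6.26 to 38.3 per gene, so none was a copy. Genes were filtered with edgeR's filterByExpr (minimum count 10; 14044 of 24054 rows), then TMM-scaled. The 6 libraries entered 1 fit with edgeR's quasi-likelihood method, robust, and its two-sided F-test (R 4.3.3, edgeR 4.0.16). Calls needed an adjusted p (Benjamini-Hochberg) under 0.05; a standard error is the fold change over the square root of F. Deviations between libraries use log2 CPM with a prior count of 2. Alternatives used limma 3.58.1 and DESeq2 1.42.0 among others. The test was tested on simulated data with known changes. A count of 0 in a library allows 0.125 to 0.295 CPM (3 counts), covering counting error only.

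The members and lists were chosen with earlier results of these data known. Library values are given, in each functional group, for the 2 called members with the smallest p and the one with the smallest change, for members not called and for the extremes; each further list gives its called gene with the smallest p in each direction. Other genes were named after their values were seen, Cdk1, Mki67 and Top2a among them. Positions and promoters are RefSeq's (GRCm38.p6), matched by symbol and Entrez identifier. Transcript lengths and exon overlaps are from GENCODE M21 and may differ from the authors' annotation.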

Additional observations from a re-analysis of the deposited data

How the results depend on the processing

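The members called higher numbered 53 under RLE or upper-quartile scaling, TMM without the 20 most abundant genes, DESeq2, limma voom, the fit without robust estimation and no low-count filter, and 1 was called lower in each. A filter of 50 or more counts in any 3 libraries left 51 members, of which 49 were higher. By library totals only, 55 were higher and 0 lower, with a median log2 fold change of 3.32. Under that scaling 83.5% of all 14044 genes tested were called higher and 698 lower. Pttg1 then stood at 0.06, and the median of all genes moved as far, to 1.01. Leaving out each library in turn gave 53 higher and 1 lower every time, and medians from 2.18 to 2.46. Over all members and settings 832 values kept their direction and side of the threshold, 2 became calls (Spc25 and Cenpk, by library totals) and 1 reversed (Pttg1). Over its alternatives the adjusted p of Cenpk ran up to 0.240 and that of Spc25 up to 0.484. The fold of Cdc25c, with 2 counts in each of 2 controls, ran from 3.05 to 4.39. No paired analysis was possible because the labels give no replicate numbers that tie libraries across groups.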
